A study of Mus musculus and Homo sapiens with 10 samples.

Results

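Upstream binding factor (UBF) and RNA polymerase I (Pol I) were compared peak by peak in HMEC, a human line grown from primary mammary epithelium and immortalized by TERT, the catalytic subunit of telomerase. The comparison took every peak of 2 lists made by chromatin immunoprecipitation and sequencing (ChIP-seq), 9478 peaks of UBF and 9294 of Pol I, which together are 18772 of the 208002 peaks in the 10 lists of the series. The UBF antibody was a rabbit polyclonal against both isoforms (UBF1/2), and the Pol I antibodies were rabbit polyclonals against the largest subunit, POLR1A. Exponentially growing cells were harvested for both. The UBF list of HMLER, with 32274 peaks, is set beside them where it bears on a value. HMLER derives from HMEC by the addition of SV40 large-T and an oncogenic form of HRAS (HRASV12G) to TERT, and forms tumours in nude mice. Each antibody has 1 list per line, with no replicate, so every value below describes these lists and no test between them was made. The lists hold positions only, with no height or read count, and the sequencing depth behind them is unknown. The intervals given are 95% binomial intervals of shares by the exact Clopper-Pearson method, and for medians from the ranks of the values. They cover counting error only, and peaks of 1 list are not independent samples.

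Pol I is the polymerase that transcribes the repeated ribosomal RNA genes in the nucleolus. UBF is an HMG-box protein that coats the active copies of these genes and helps to recruit and release Pol I there. The tandem ribosomal gene arrays are largely missing from the chromosomes of hg19, and UBF has also been described at many sites outside them. Epithelial markers could not be checked, since the lists hold no expression and no gene annotation of the build was used.

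Over the assembled genome UBF and Pol I peaks lay in the same broad regions but seldom at the same place. The centre of a UBF peak was a median of 56.6 kb (interval 54.4 to 58.6) from the nearest Pol I centre. The middle 50% of UBF peaks lay between 19.1 and 139 kb from one. In the other direction, a Pol I peak was a median of 72.5 kb (70.1 to 75.6) from the nearest UBF centre, with a middle 50% between 22.1 and 209 kb. Neighbours of the same list were nearer for UBF, at a median of 37.1 kb to the next UBF peak, and about as far for Pol I, at 66.7 kb to the next Pol I peak.

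Close pairs were a small minority in both lists. A Pol I centre lay within 1000 bp of 423 UBF peaks (4.46%, 4.06 to 4.90), and a UBF centre within 1000 bp of 409 Pol I peaks (4.40%, 3.99 to 4.84). Within 100 bp the shares were 1.06% of UBF peaks and 1.08% of Pol I peaks. Within 10000 bp they were 16.4% of UBF peaks and 14.9% of Pol I peaks, and within 100000 bp 65.7% and 57.5%. The windows of 1000 bp on either side of Pol I centres make up 0.621% of the chromosome span between the first and last peaks of the human lists. The share of UBF peaks in them was 7.19 times (6.54 to 7.89) their share of that sequence. The like windows of UBF make up 0.613%, and the share of Pol I peaks in them was 7.18 times (6.52 to 7.90) that. For scale, 54.5% (53.5 to 55.5) of the same HMEC UBF peaks had a UBF centre of HMLER within 1000 bp, which was 25.6 times the share of the sequence. The HMLER list is longer and its peaks are wider. The span was not cleared of assembly gaps, where no peak can lie, which raises each of these ratios.

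**Figure D1:**
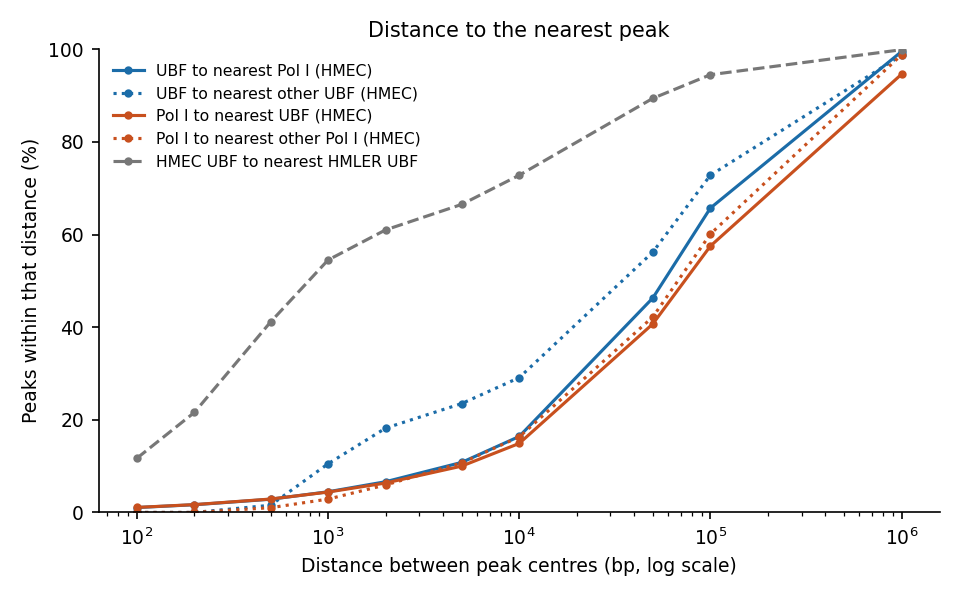
Share of peaks (y axis, %) with a peak centre within a given distance (x axis, bp, log scale), for UBF to Pol I, Pol I to UBF, each HMEC list to itself, and HMEC UBF to HMLER UBF. At 1000 bp the 2 solid curves stand at 4.46% for UBF and 4.40% for Pol I, and the dashed curve of HMEC UBF to HMLER UBF at 54.5%.

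The number of Pol I peaks around a UBF peak was highest at the shortest distances. Within 500 bp of UBF centres there were 29.1 Pol I centres per Mb (276 pairs), and at 500 to 1000 bp 17.7 per Mb. Between 2 and 50 kb the density was nearly level, at 8.27 to 7.05 per Mb. It then declined slowly to 4.72 per Mb at 500 kb to 1 Mb, above the 3.15 per Mb of the whole span. The density within 1000 bp, 23.4 per Mb, was thus 4.97 times that at 500 kb to 1 Mb. Around HMLER UBF peaks the Pol I density of HMEC took the same course, from 23.9 per Mb within 500 bp to 4.86 per Mb at 500 kb to 1 Mb.

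UBF peaks had near neighbours of their own kind more often than Pol I peaks did. Another UBF centre lay within 2000 bp of 1722 UBF peaks (18.2%, 17.4 to 19.0), and another Pol I centre within 2000 bp of 551 Pol I peaks (5.93%, 5.46 to 6.43). The density of other UBF centres was highest at 500 to 1000 bp, with 94.2 per Mb, against 19.8 per Mb for Pol I around Pol I at that distance. Within 500 bp it was 15.6 per Mb for UBF and 10.4 per Mb for Pol I. Peaks of 1 list do not overlap, so their widths (median 469 bp for UBF, 290 bp for Pol I) limit how close centres can lie. The part of width, and of the splitting of a region into several peaks, was not tested. Merging the peaks of a list that lay within 1000 bp of each other took 818 peaks from the UBF list and 243 from the Pol I list.

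**Figure D2:**
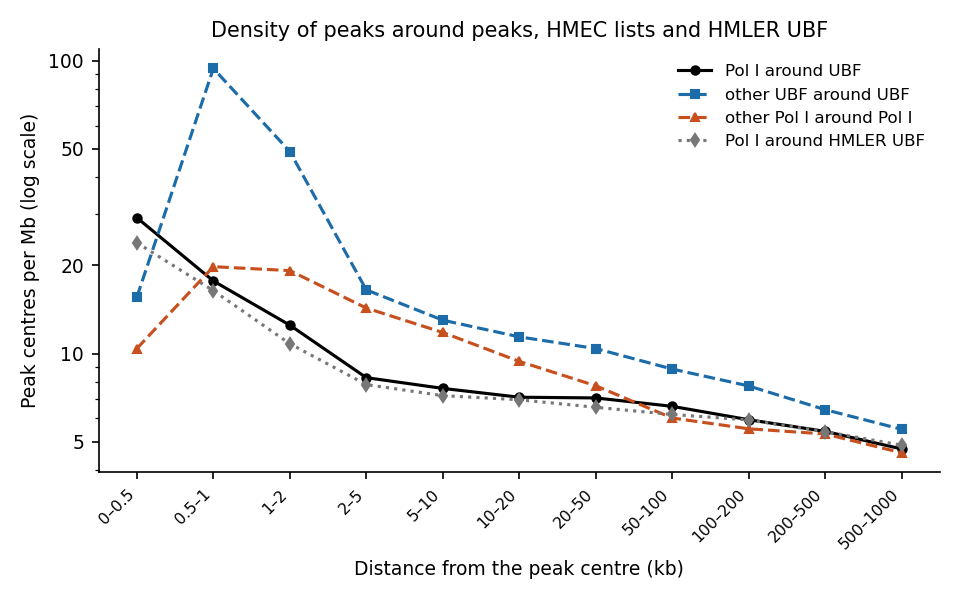
Number of peak centres per Mb (y axis, log scale) in classes of distance from a peak centre (x axis, kb), for Pol I around UBF, each HMEC list around itself, and Pol I around HMLER UBF. Pol I around UBF starts at 29.1 per Mb within 500 bp and ends at 4.72 per Mb, and UBF around UBF has its highest value, 94.2 per Mb, at 500 to 1000 bp.

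Pol I peaks were in general narrower than UBF peaks, and where the lists did touch, Pol I lay inside UBF more often than the reverse. UBF peaks had a median width of 469 bp and reached 3899 bp, and Pol I peaks had a median of 290 bp, with 90% of them between 183 and 421 bp. There were 270 overlapping pairs, made of 258 UBF peaks (2.72% of the list) and 266 Pol I peaks (2.86%). In 117 of the pairs the Pol I peak lay wholly inside the UBF peak, and in 6 the reverse held. Only the narrower peak of a pair can lie inside the other, so the widths of the lists favour this direction. Position apart from width was not tested. The centres were a median of 163 bp apart. The share of peaks with a near centre of the other list was highest among the widest 25% of each list. It was 6.17% (5.23 to 7.21) for UBF peaks of 626 bp or more, against 4.01% in the narrowest 25%, and 6.49% (5.51 to 7.58) for Pol I peaks of 320 bp or more, against 3.25% in the narrowest 25%.

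The pair of touching peaks in which the narrower was widest lay at the start of chromosome 5 of hg19. There the UBF peak ran from 9987 to 11822 and the Pol I peak from 9991 to 11814, with centres 2 bp apart. A second pair of this kind opened chromosome 1, with UBF from 9988 to 10627 and Pol I from 9991 to 10485. HMLER UBF also had a peak over both places. As background, most chromosomes of hg19 open with an unsequenced gap, behind which telomeric repeat begins. Within the first 20 kb of the chromosomes there were 4 UBF peaks, on 4 chromosomes, and 3 Pol I peaks, on 3 chromosomes, and the 2 pairs named were the only overlaps there. The next pair by width lay on chromosome 1, with UBF from 236876918 to 236878425 and Pol I from 236876954 to 236878354, and here HMLER had no UBF peak. On chromosome 2 a UBF peak of 3325 bp, from 242949529 to 242952854, held 2 Pol I peaks, of 942 and 752 bp, and the UBF peak beside it touched another Pol I peak. On chromosome 9 the pair with UBF from 141121817 to 141123940 and Pol I from 141122220 to 141122983 lay near the last position covered on that chromosome. Of the 10 pairs chosen by width, 8 had the Pol I peak wholly inside UBF, and 3 had a UBF peak of HMLER over them.

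The chromosomes were filled alike by UBF and Pol I, with X and 21 as exceptions. Over 23 chromosomes there were 3.22 UBF peaks and 3.15 Pol I peaks per Mb. On 21 of them the ratio of UBF to Pol I peaks lay between 0.882 and 1.21. Both lists were densest on chromosome 17, with 5.94 UBF and 5.64 Pol I peaks per Mb, and next on chromosome 19, with 5.30 and 5.20. The densities of UBF and Pol I correlated across the 23 chromosomes with Pearson's r = 0.92 and Spearman's rho = 0.93, as a description of points that share the same 2 lists. With X and 21 left out r was 0.97. They were left out for their ratios in these same data, so the higher r follows from that choice.

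Chromosome X held 87 UBF peaks and 292 Pol I peaks, a ratio of 0.298 (0.232 to 0.380). That was 0.561 UBF peaks and 1.88 Pol I peaks per Mb, so both lists were below their own mean there, and UBF more so. X held 0.918% of the UBF list and 3.14% of the Pol I list, on 5.27% of the span. In HMLER, X held 2.05% of the UBF list. None of the 87 UBF peaks on X had a Pol I centre within 1000 bp, a count of 0 that allows a share of up to 3.45% (3 counts of the total), and none of the 292 Pol I peaks had a UBF centre there, which allows up to 1.03% by the same limit. A Pol I peak on X was a median of 677 kb from the nearest UBF peak. Chromosome 21 went the other way, with 111 UBF peaks and 67 Pol I peaks, a ratio of 1.66 (1.21 to 2.28). In the wider 50% of each list the ratio was 2.71 on chromosome 21 and 0.253 on X.

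Close pairs were commonest on chromosome 1, where 7.07% of 1061 UBF peaks had a Pol I centre within 1000 bp, against 4.46% in the whole list. Chromosome 10 followed with 6.56% of 655. Chromosome 18 had 1 such UBF peak among 165 (0.606%), the lowest share apart from X. Without the 1-Mb bins that were fullest in either list, chromosome 1 had 6.14% of 928 UBF peaks with a near centre. That was above the 4.46% of the whole list but below the 6.41% of 281 UBF peaks on chromosome 15, which lost no bin. For Pol I on chromosome 1 it was 6.86% of 860 peaks.

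**Figure D3:**
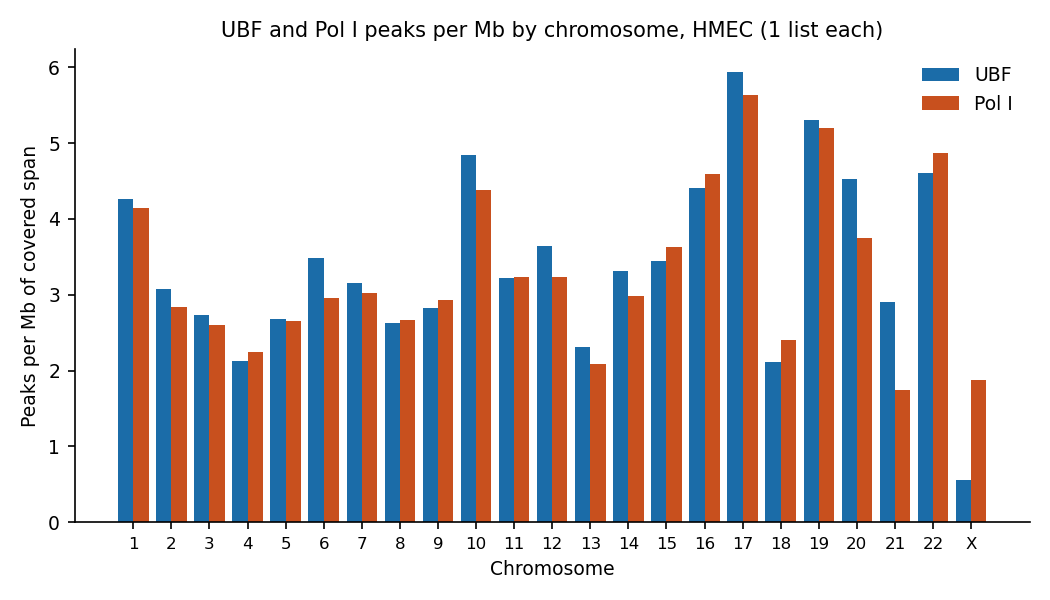
Peaks per Mb of the span covered by the human lists (y axis) on each chromosome (x axis), UBF left and Pol I right, 1 list each. The bars of a pair are close on all chromosomes but X, with 0.561 for UBF and 1.88 for Pol I, and 21, with 2.90 for UBF and 1.75 for Pol I.

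At the scale of 1 Mb the counts of UBF and Pol I rose together. Of 3048 bins, 1890 held both, 172 held UBF and no Pol I, 566 held Pol I and no UBF, and 420 held neither. Thus 96.1% of UBF peaks lay in a bin with Pol I, and 87.6% of Pol I peaks in a bin with UBF. The counts correlated with Pearson's r = 0.62 and Spearman's rho = 0.63 over all bins, a description of bins that share the same 2 lists. Bins run from the start of each chromosome's numbering, so those that held neither include stretches before the first covered base. Without the bins that held neither, r was 0.57. Within single chromosomes r ranged from 0.20 on X, with 0.33 the next lowest, to 0.73 on chromosome 1. In 100-kb bins r was 0.25 and in 5-Mb bins 0.76. Small bins hold few peaks of either list, and the part of sparse counts in the lower r was not tested. HMEC UBF and HMLER UBF correlated with r = 0.76 over the same bins, and HMEC Pol I and HMLER UBF with r = 0.63.

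The fullest bins differed between the lists, but were not empty of the other. Those of Pol I held 6 to 57 UBF peaks, and those of UBF held 2 to 41 Pol I peaks. Over all bins the median was 2 in each list. Only the bin of chromosome 1 from 145000001 to 146000000 was among the fullest of both, with 57 UBF and 41 Pol I peaks. The bins with most UBF after it were on chromosome 6 from 26000001, with 34 UBF and 7 Pol I peaks, on chromosome 22 from 46000001, with 31 and 12, and on chromosome 13 from 114000001, with 29 and 3. A further 5 bins tied at 26 UBF peaks, among them chromosome 10 from 134000001, where Pol I had 2. Pol I was fullest, after the shared bin, on chromosome 1 from 148000001, with 6 UBF and 37 Pol I peaks, and from 144000001, with 19 and 33. With 25 Pol I peaks each, the first bin of chromosome 1 held 11 UBF peaks and the bin from 228000001 held 14. Of all 3048 bins, 224 held 10 or more UBF peaks, 145 held 10 or more Pol I peaks, and 70 held 10 or more of both. One bin with 10 or more UBF peaks had no Pol I, on chromosome 9 from 128000001. In 5 bins with 10 or more Pol I peaks there was no HMEC UBF, namely chromosome X from 114000001, 2 from 92000001, 7 from 102000001, 9 from 42000001 and 13 from 49000001. HMLER UBF had 20 peaks in the bin on chromosome 7, 11 on 13, 4 on X, 1 on 9 and 0 on 2.

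**Figure D4:**
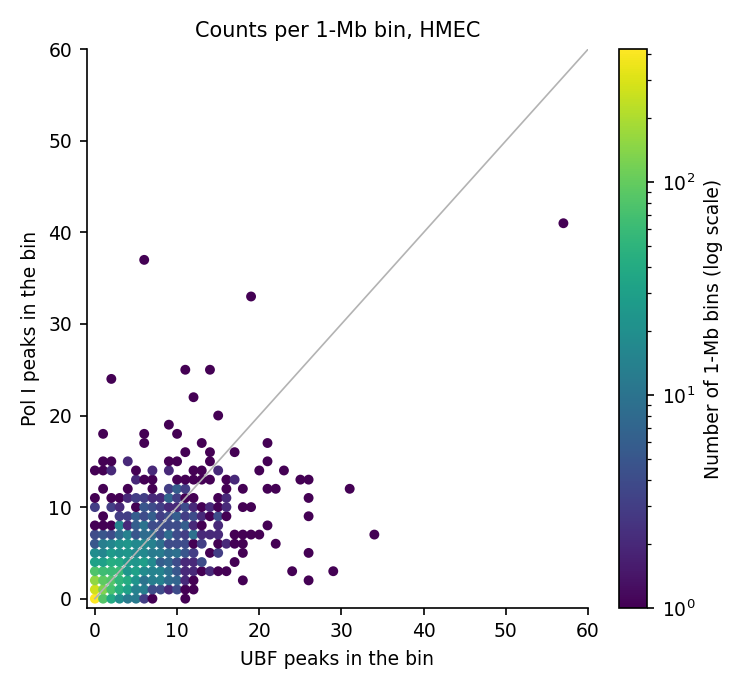
UBF peaks (x axis) and Pol I peaks (y axis) in each 1-Mb bin of chromosomes 1 to 22 and X, coloured by the number of bins at that point (log scale), with the line of equal counts in grey. Most bins lie in the lower left corner, and the single bin at 57 UBF and 41 Pol I peaks is far from the others.

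UBF lay near the ends of the covered spans more than Pol I did. Of the UBF peaks on chromosomes, 1630 (17.2%, 16.4 to 18.0) were within 5 Mb of an end of the covered span, and of the Pol I peaks 1053 (11.4%, 10.7 to 12.0), on 7.81% of the span. HMLER UBF lay between them, at 14.9%. The difference was larger in the last 5 Mb of the spans than in the first. A span starts at the first covered base, which on chromosomes such as 13, 14, 21 and 22 lay far from the start of the numbering. The first 5 Mb of those spans are thus not the start of the chromosome. In the first 5 Mb of the spans there were 644 UBF and 538 Pol I peaks, with more UBF than Pol I on 14 of 23 chromosomes. In the last 5 Mb there were 986 UBF and 515 Pol I peaks, with more UBF than Pol I on 20 of 23 chromosomes. The exceptions in the last 5 Mb were chromosome 4 with 23 UBF and 24 Pol I peaks, 14 with 34 and 40, and X with 6 and 14. This comparison was chosen after the fullest bins had been seen.

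Both UBF and Pol I formed runs of peaks, and the runs of each list were richer in the other than the genome at large. A cluster was a run of at least 5 peaks of 1 list with neighbouring centres at most 20 kb apart. UBF had 68 clusters with 473 peaks (4.99% of the list), and Pol I had 38 with 316 peaks (3.40%). With peaks within 1000 bp merged first, the numbers were nearly equal, at 29 UBF and 28 Pol I clusters. A Pol I peak lay in 26 of the 68 UBF clusters, and a UBF peak in 11 of the 38 Pol I clusters. The UBF clusters, 2.40 Mb in all, held 56 Pol I peaks, or 23.4 per Mb against 3.15 over the whole span. Of these 56, 13 lay in the largest UBF cluster. The Pol I clusters, 1.40 Mb in all, held 44 UBF peaks, or 31.4 per Mb against 3.22. Of these 44, 18 lay in the cluster from 145020761 on chromosome 1 and 8 in that from 149803375. Of the clusters, 4 of UBF and 3 of Pol I overlapped a cluster of the other list. Peaks in clusters had a near centre of the other list at 7.61% (5.39 to 10.4) for UBF, against 4.30% (3.89 to 4.74) outside clusters, and at 7.91% (5.19 to 11.5) for Pol I, against 4.28% (3.87 to 4.72) outside.

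The largest UBF cluster lay on chromosome 1 from 144977101 to 145155184, with 41 UBF peaks in 178 kb, 13 Pol I peaks among them and 11 peaks of HMLER UBF. The next on that chromosome, from 145208289 to 145292592, held 16 UBF and 3 Pol I peaks. The largest Pol I cluster followed in the same region, from 145301523 to 145364262, with 23 Pol I peaks and no UBF peak of either line, and its nearest UBF centre was 9545 bp away. The Pol I clusters next in size, also on chromosome 1, ran from 148247056 to 148327854 with 20 Pol I peaks and 1 UBF peak, and from 144155865 to 144224490 with 19 Pol I peaks and no UBF. Mixed runs lay in the same part of chromosome 1. From 145020761 to 145092032, inside the largest UBF cluster, a Pol I cluster of 11 peaks held 18 UBF peaks, and from 149803375 to 149833571 one of 7 Pol I peaks held 8 UBF peaks.

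Other large UBF clusters differed in how many Pol I peaks they held. One on chromosome 22 from 46435103 to 46504383 had 21 UBF and 2 Pol I peaks, and one on chromosome 7 from 27135928 to 27211546 had 17 UBF and 2 Pol I peaks, with 19 and 23 peaks of HMLER UBF. On chromosome 1 from 149783308 to 149832798, 10 UBF and 6 Pol I peaks lay together, in part within a Pol I cluster of 7 peaks. On chromosome 6 from 27774802 to 27806999, 10 UBF peaks lay with 2 Pol I peaks, and from 26183895 to 26217638, 8 UBF peaks lay with none.

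Pol I clusters of another form were made of wide peaks set close together. On X from 114954812 to 115004472 there were 16 Pol I peaks with a median width of 2158 bp, which covered 83.2% of the interval, with a median of 2984 bp between centres. On chromosome 1 from 228745592 to 228782634 there were 14 with a median width of 1538 bp, a cover of 75.1% and 2305 bp between centres. Neither held a UBF peak of HMEC, and HMLER UBF had 1 peak in the cluster on X and 2 in that on chromosome 1. The nearest HMEC UBF centres were 2348346 bp and 100238 bp away. Wide Pol I peaks were rare elsewhere. Only 63 Pol I peaks (0.678%) reached 1000 bp, against 642 UBF peaks (6.77%), and 43 of the 63 lay in Pol I clusters. Of the 63 wide Pol I peaks 2 overlapped UBF, the pair at the start of chromosome 5 and that from 236876918 on chromosome 1, which is a share near the 2.86% of the whole Pol I list.

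**Figure D5:**
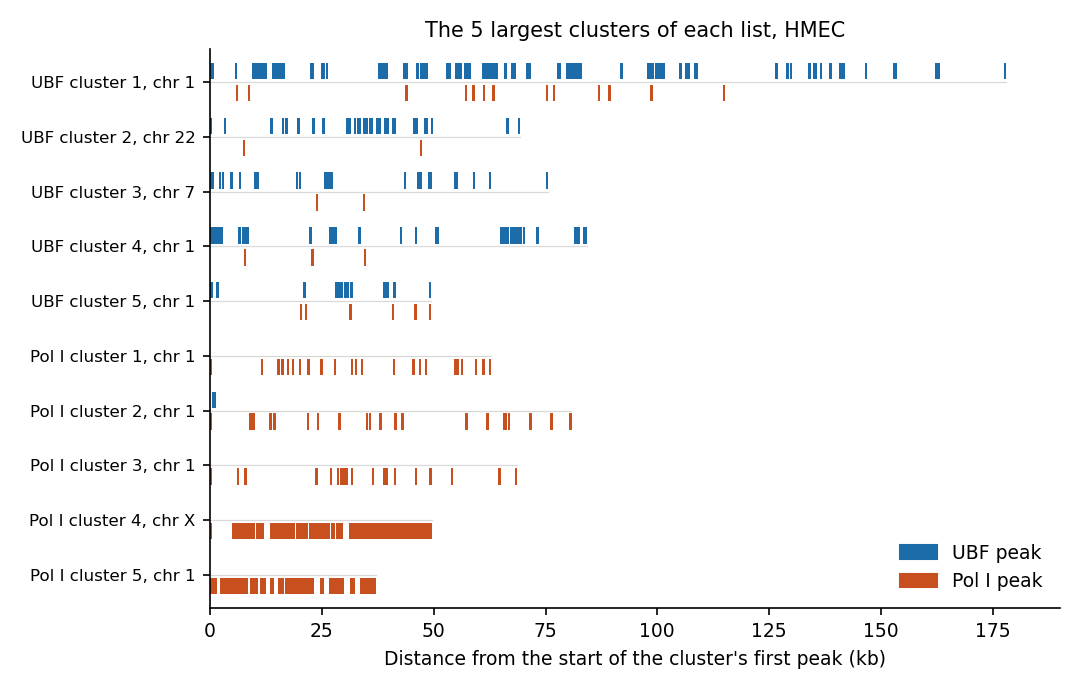
Positions of UBF and Pol I peaks in the 5 largest clusters of each list, as distance in kb from the start of the cluster's first peak (x axis), with UBF above and Pol I below each line and peaks under 0.5 kb drawn 0.5 kb wide. The UBF clusters hold between 2 and 13 Pol I peaks, and the Pol I clusters 1 UBF peak in all, with the wide adjoining Pol I peaks in the cluster on X and the fifth cluster, on chromosome 1.

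UBF peaks of 1000 bp or more met Pol I more often than the list as a whole. Wider peaks have more room to overlap, and the part of width in this was not tested. None of the 10 widest Pol I peaks met HMEC UBF, but only 2.86% of all Pol I peaks did. Of the 642 UBF peaks of 1000 bp or more, 33 (5.14%) overlapped Pol I, against 2.72% in the whole UBF list. Of the 10 widest UBF peaks 2 overlapped Pol I, on chromosome 1 from 145037799 to 145041541 and the one on chromosome 2 given above, each with 2 Pol I peaks. The widest UBF peak, on chromosome 7 from 16436585 to 16440484, was 181476 bp from the nearest Pol I centre. Behind the widest Pol I peak, on a contig, came 3 adjoining peaks on chromosome 16 between 46385805 and 46409502. They were of 11223, 6104 and 6188 bp, with 23 and 159 bp between them, and at least 770616 bp from any HMEC UBF centre. The others lay in the clusters on X and chromosome 1 just described and in one on chromosome 2 from 92291377 to 92326137, where 11 Pol I peaks and no UBF peak of either line lay.

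Unplaced and unlocalized contigs carried Pol I more than UBF. There were 14 Pol I peaks on 7 contigs (0.151% of the list, 0.0824 to 0.253) and 2 UBF peaks on 2 contigs (0.0211%, 0.00256 to 0.0762). HMLER UBF had 11 on 8 contigs, which that list names in another style. The widest Pol I peak covered 45535 bp of GL000220.1, from 101469 to 147004. It was 4.06 times as wide as the next widest and 157 times the median Pol I width, and neither UBF list had a peak on that contig. Only GL000192.1 carried both in HMEC, with 1 UBF peak, from 517678 to 518087, and 7 Pol I peaks, the nearest 11918 bp away between centres. The HMLER list has 4 UBF peaks on the contig of the same number, and 2 of the 7 Pol I peaks, from 505803 to 506126 and from 541067 to 541415, overlapped them. The second UBF peak on a contig lay on GL000223.1, from 154105 to 155290. The remaining Pol I peaks were 2 on GL000212.1 and 1 each on GL000195.1, GL000205.1, GL000216.1 and GL000225.1. Nothing says which filters each list went through, so a missing peak on a contig does not show that the protein was absent from it.

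Pol I peaks of HMEC were near UBF of HMLER more often than near UBF of HMEC, whose list holds 3.22 peaks per Mb, against 11.0 in the HMLER list. A UBF centre of HMLER lay within 1000 bp of 1264 Pol I peaks (13.6%, 12.9 to 14.3), which was 6.39 times (6.06 to 6.72) the share of the sequence in such windows, against 7.18 times for HMEC UBF. Of the 409 Pol I peaks near HMEC UBF, 279 (68.2%) were near HMLER UBF as well. Most Pol I peaks, 7900 (85.0%), had no UBF centre of either line within 1000 bp.

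No annotation of hg19 was used, and peaks were assigned to no gene. As background from general knowledge of the human genome, and not as a measurement, some of these intervals lie where known gene families and repeats are. The UBF cluster on chromosome 7 falls among the HOXA homeobox genes, and those on chromosome 6 and from 149783308 on chromosome 1 among replication-dependent histone genes. The bins and clusters of chromosome 1 between 144000001 and 149000000 fall in a segment rich in duplicated sequence. Contig GL000220.1 carries a copy of the large ribosomal RNA gene unit, the template of Pol I. The Pol I cluster from 228745592 on chromosome 1 falls in the tandem array of 5S ribosomal RNA genes, which RNA polymerase III transcribes, and that on X in the macrosatellite array DXZ4. The Pol I peaks on chromosomes 2 and 16 named above adjoin gaps of the assembly. These places were named after their values were seen.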

How the data were processed

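Peaks of UBF and Pol I in HMEC, and of UBF in HMLER, were read from lists the authors deposited, 1 per antibody and line, with chromosome, start and end per peak. CASAVA 1.8.2, BWA and Picard, and hg19 for human data, are named per the submitters' processing notes. The sources used here do not give the peak caller, thresholds, filters or pooling, nor the counting origin of the coordinates, which are printed as deposited.

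Distances run between peak centres on the same sequence; 1 UBF and 7 Pol I peaks had no partner sequence. Spans run from the first to the last base covered by the 3 human lists, with assembly gaps between them included. Bins, clusters and density by distance used chromosomes 1 to 22 and X. Each human list also had peaks on Y, which these measures left out. Peaks were named by rule: the 10 widest of each list, the 10 overlapping pairs with the widest narrower peak, the 5 fullest bins (ties kept) and 5 largest clusters of each list, and every contig. Other places named were added after their values were seen. The rule gave gene names only with an hg19 annotation, so those named are background. The rule, members and lists were chosen with earlier results of these data known. Gene lists could not be counted. In simulated lists of 2000 peaks with 10% and 50% planted near pairs, 11.7% and 50.7% were found. With no planted pairs the share found was 1.40%. The planted pairs lay within the 1000 bp limit, and the other peaks were spread at random on a single sequence, unlike the real lists. The simulation thus checks the counting only. Python 3.11.15, NumPy 2.4.6, SciPy 1.17.1 and Matplotlib 3.10.9 were used.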

Additional observations from a re-analysis of the deposited data

How the results depend on the processing

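Of 56 alternatives, 22 left the value within its interval (for a correlation within 0.05, for a count within 1.5 times) and 34 did not; the cause was not tested. The 10 on span ends and on density around UBF were added after the data were seen. Shares near the other list, 4.46% of UBF and 4.40% of Pol I, were 1.06% and 1.08% with centres within 100 bp, 16.4% and 14.9% within 10000 bp, 2.72% and 2.86% with any overlap, 0.960% and 2.22% with 50% of the peak covered, and 3.44% and 3.54% in the wider 50% of each list. With peaks within 1000 bp merged the Pol I share was 3.97%. In the wider 50%, the median distance was 122910 bp from UBF to Pol I and 142556 bp from Pol I to UBF, r per bin was 0.50, the UBF to Pol I ratio on chromosome 21 was 2.71, and Pol I density around UBF was 7.21 times that far away. The correlation was 0.25 in 100-kb and 0.76 in 5-Mb bins. Clusters of UBF and of Pol I numbered 31 and 25 with gaps up to 10 kb, 166 and 83 up to 50 kb, 126 and 69 with at least 4 peaks, and 24 and 22 in the wider 50%; merging left 29 of UBF. Shares near the ends of the spans were 4.57% of UBF and 3.23% of Pol I within 1 Mb, and 25.8% and 18.7% within 10 Mb. They were 21.0% and 12.1% in the wider 50%. Without the fullest bins UBF had 15.6% and Pol I 10.8%. In each of these UBF stayed above Pol I. No paired analysis was possible because each antibody has 1 list. Depth is unknown, so neither list could be thinned to the other.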
